A study of Mus musculus with 11 samples.

Results

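The clustered protocadherin genes lie in 3 tandem arrays on mouse chromosome 18, in the order Pcdha, Pcdhb and Pcdhg. Open chromatin over these arrays was described in 4 embryonic stem cell lines from an ATAC-seq count table. The regions were chosen by position alone, as all table rows that start in a fixed window of chromosome 18 around the arrays. The choice used no count. This gave 157 of the 248336 regions in the table, the first of which begins at 36912614 and the last of which ends at 37887420 in mm10, as the table lists them. All 157 passed the filter on low counts. GENCODE M21 annotates 58 clustered protocadherin genes here (14 Pcdha, 22 Pcdhb and 22 Pcdhg). Of these, 50 had at least 1 region within 1000 bp of the annotated 5' end of the gene. Starts of single transcripts did not enter this count.

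Clustered protocadherins are cell adhesion proteins of the cadherin superfamily that give single neurons a surface identity. Each Pcdha and Pcdhg gene has its own promoter and a large first exon, the variable exon, which is spliced to constant exons shared by the whole array, whereas a Pcdhb gene is read from 1 exon. Neurons use a small, largely random choice of these promoters, and the C-type genes at the ends of the Pcdha and Pcdhg arrays (Pcdhac1, Pcdhac2, Pcdhgc3, Pcdhgc4 and Pcdhgc5) are used more widely. Promoter choice depends on DNA methylation and on loops held by CTCF and cohesin between the promoters and distant enhancers, and outside the nervous system most of the genes are repressed.

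The lines were B6 (C57BL/6J, 3 libraries), D2 (DBA/2J, 3 libraries) and 2 congenic lines in which an interval of chromosome 13 was exchanged. B6-13D2 (labelled QJ, B6.D2-(rs30079041-rs51756099)/Bakr, 2 libraries) carries the D2 form of the interval in a B6 genome, and D2-13B6 (labelled XE, D2.B6-(rs29224292-rs13469455)/Bakr in the sample labels, 3 libraries) carries the B6 form in a D2 genome. The series' design text gives another end marker for XE. All were grown in medium with 15% serum, LIF, the MEK inhibitor PD0325901 (1 µM) and the GSK3 inhibitor CHIR99021 (3 µM), and each library came from 100000 cells. Each genotype was 1 cell line and its libraries are technical replicates, so p-values measure the spread between libraries of a line only. The exchanged interval is not on chromosome 18: D2 and D2-13B6 are labelled as D2, and B6 and B6-13D2 as B6, at the protocadherin arrays.

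Libraries held 15198496 to 43042955 counts, of which 11620 to 28482 fell in the window. The D2-13B6 libraries stood apart from the others at cell type markers. The summed normalised CPM (a library-size-scaled count, adjusted by the TMM method) over the 16 start regions of 10 embryonic stem cell marker genes ran from 367 to 448 in D2-13B6, from 496 to 512 in B6, from 485 to 520 in B6-13D2 and from 474 to 520 in D2. Over the 9 start regions of 5 of 6 feeder fibroblast marker genes it ran from 102 to 138 in D2-13B6, against 57.8 to 64.8 in B6, 50.2 to 57.1 in B6-13D2 and 62.3 to 74.5 in D2. The lowest of these feeder regions averaged 1.76 normalised CPM per kb over the libraries, and the lowest stem cell marker region 2.56. Against B6, D2-13B6 had 10 of the 16 stem cell marker regions lower and 2 higher, and 5 of the 9 feeder marker regions higher and none lower. Of 7 primitive endoderm marker regions 2 were higher and 3 lower, and of 18 neural marker regions none was higher and 3 were lower. Beside these counts, 37.5% of all start regions outside the window were higher in D2-13B6 than in B6 and 17.2% lower. A start region of Pou5f1, the stem cell transcription factor OCT4, was read at a mean of 70.7 normalised CPM for B6, 67.2 for B6-13D2, 57.4 for D2 and 34.9 for D2-13B6. The list was mixed. Its 2 higher regions were starts of Klf4 (39.7 in B6 and 69.2 in D2-13B6) and Klf2 (91.3 and 121.9). A Sox2 start, at 30.59 and 25.85, did not pass. The part of these marker shifts in the protocadherin results was not tested, and fewer cells of a type cannot be told apart from less open chromatin per cell.

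Of the 157 regions, 58 were protocadherin start regions (18 Pcdha, 18 Pcdhb and 22 Pcdhg), and 50 lay in a protocadherin coding exon away from the start (13 Pcdha, 21 Pcdhb and 16 Pcdhg). The latter are called exon regions here. They lay between 1111 and 2301 bp from the nearest annotated protocadherin start, with a median of 1530.5 bp. A further 2 covered Pcdhg constant exons, 9 were starts of other genes, and 38 were intronic, intergenic or otherwise placed. In Pcdhb 14 genes had both, a region at the start and a separate one well inside the exon. All but 1 of the 22 Pcdhb genes had an exon region, and 15 had a start region. Pcdhb5, Pcdhb7, Pcdhb9, Pcdhb14, Pcdhb18, Pcdhb19 and Pcdhb21 had an exon region without a start region.

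Levels differed by array and by place in the gene. On the scale of normalised CPM per kb, averaged over all 11 libraries, Pcdhb start regions had a median level of 2.78 and Pcdhb exon regions one of 4.85. In Pcdha the medians were 3.02 for starts and 3.62 for exon regions, and in Pcdhg they were 4.44 and 4.23. For comparison, the median was 3.33 over all 248336 regions and 5.54 over the 38208 start regions of all genes. The median protocadherin start thus lay above 28.5% of all start regions, and the median Pcdhb start above 16.4% of them. In Pcdha the C-type starts had the highest levels, 7.47 normalised CPM per kb at Pcdhac2 and 7.21 at Pcdhac1, ahead of a Pcdha11 start at 4.96. In Pcdhg the C-type gene Pcdhgc3 was highest at 10.6, followed by a Pcdhgb7 start at 8.07 and Pcdhga7 at 6.52, while Pcdhgc4, at 5.26, lay among the other starts. The highest mean log2 CPM of the window belonged to 2 regions over the Pcdhg constant exons (8.37 and 6.68 normalised CPM per kb), followed by the Pcdhgc3 start, an intronic region between the Pcdhg constant exons (7.93) and the Pcdhac2 start.

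**Figure D1:**
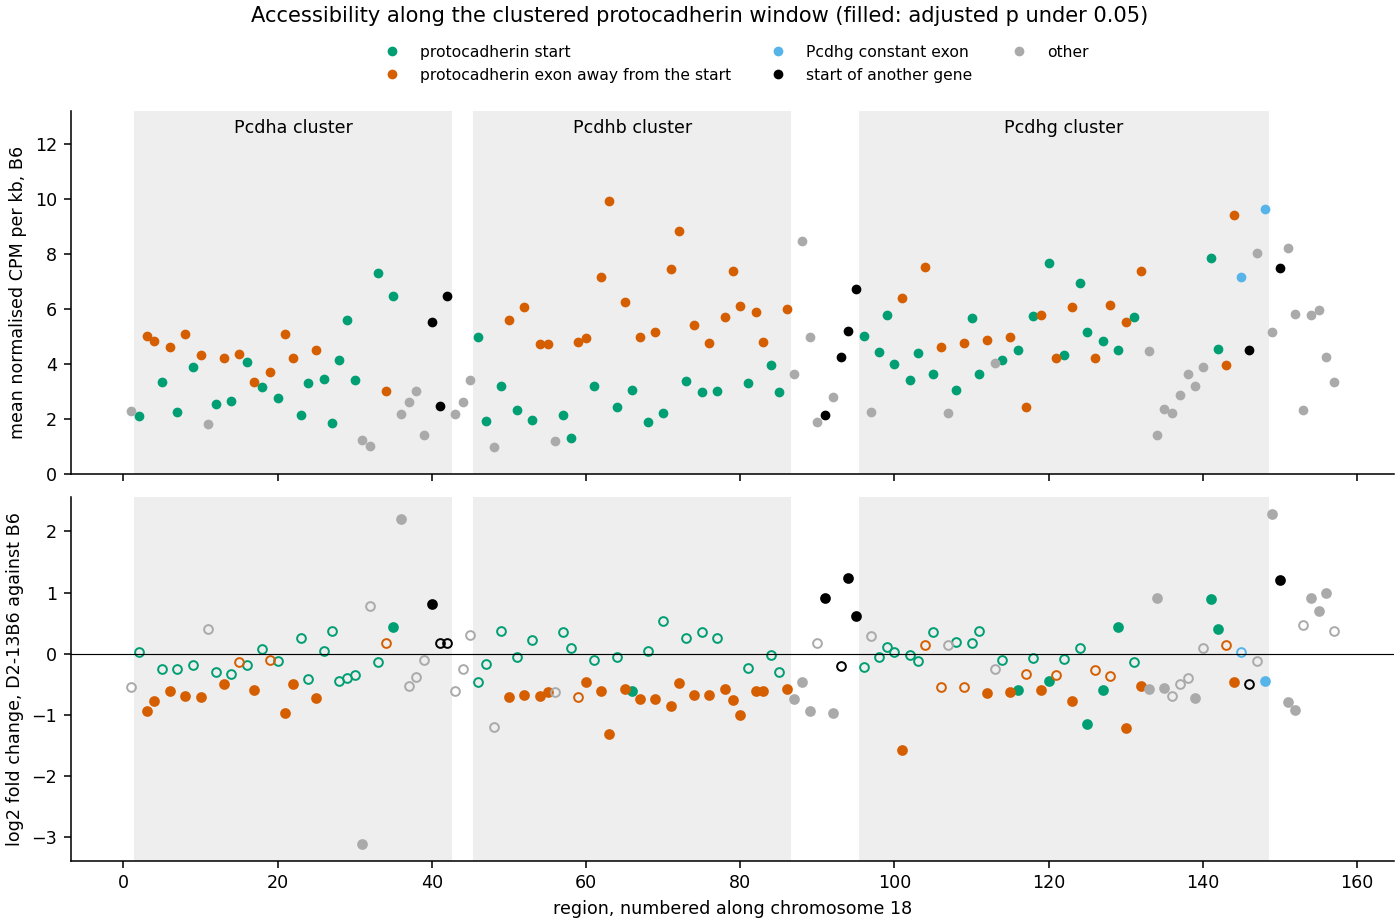
Regions are numbered from 1 to 157 along chromosome 18, with the 3 arrays shaded. The upper panel gives the mean normalised CPM per kb in B6 and the lower panel the log2 fold change of D2-13B6 against B6, with filled points at an adjusted p under 0.05. In the Pcdhb array the exon regions lie above the starts in level, except that some lie below a Pcdhb1 start. All of them lie below 0 in fold change.

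Differences between lines were tested with edgeR's quasi-likelihood test in 1 fit of all 11 libraries, with Benjamini-Hochberg adjustment over 246840 regions, and a region with an adjusted p under 0.05 is called. D2-13B6 against B6 gave 69 called regions in the window, 15 higher and 54 lower, at a median log2 fold change of -0.27 over the 157. Over the whole table this comparison called 41.7% of regions, 21.6% higher and 20.1% lower, at a median of -0.13. The share called in the window was near that background, and the split was not: most window regions that passed were lower. D2 against B6 gave 23 called regions (12 higher, 11 lower), where 22.5% of all regions were called, 13.7% higher and 8.8% lower. D2 against D2-13B6 gave 26 (19 higher, 7 lower) against a background of 23.7% (8.53% higher, 15.2% lower), and D2 against B6-13D2 gave 12 (7 higher, 5 lower) against 18.8% (11.6% higher, 7.24% lower). B6-13D2 against B6 gave none of 157 by edgeR or DESeq2, with 11 at an unadjusted p under 0.05 by edgeR and 8 by DESeq2, where 0.474% of all regions were called, 0.139% higher and 0.335% lower. Scaling by total counts instead of TMM shifted the median of all regions by -0.29 when D2-13B6 was set against B6, by -0.13 for the parent lines (D2 against B6) and by 0.17 for D2 against D2-13B6. The D2 against B6 count was 13 to 15 without B6 replicate 1, 2 or 3, or D2 replicate 1 or 3, the D2 against D2-13B6 count was 16 without D2-13B6 replicate 1 and 11 without D2 replicate 1, and the D2 against B6-13D2 count was 4 or 5 without B6-13D2 replicate 1 or 2. Total counts gave 10 higher and 83 lower in D2-13B6 against B6, and 9 and 22 in D2 against B6. They gave 48 and 4 in D2 against D2-13B6, and 4 and 11 in D2 against B6-13D2. DESeq2's size factors within edgeR gave 10 higher and 9 lower in D2 against D2-13B6.

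In D2-13B6 against B6 the regions inside protocadherin exons fell, and the starts of the same genes mostly did not pass the test. Of the 50 exon regions 38 were lower and none was higher, at a median log2 fold change of -0.61. Of the 58 start regions 4 were higher and 5 lower, at a median of -0.05. Leaving out 1 library gave 27 to 38 lower exon regions and none higher. Under total counts 45 exon regions were lower, and 1 start was higher and 16 lower.

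The Pcdhb exons moved most uniformly. Of their 21 regions 20 were lower and all 21 had a log2 fold change below 0, from -1.31 to -0.46 with a median of -0.67. The clearest was in Pcdhb19, at 37498514 to 37499572, a gene with no start region in the table. It had 5.92, 7.87 and 5.65 normalised CPM in the B6 libraries, 3.38, 3.54 and 2.72 in D2-13B6, 5.18 and 5.58 in B6-13D2, and 6.59, 6.37 and 6.30 in D2. All 3 D2-13B6 libraries lay below every other library, and the log2 fold change against B6 was -0.99 ± 0.19 (SE, edgeR adjusted p = 1.12e-05). The largest Pcdhb fold was in a narrow region of Pcdhb9, at 37402596 to 37402806, with 2.46, 1.95 and 1.84 normalised CPM in B6 and 0.753, 0.606 and 1.20 in D2-13B6. It fell by 1.31 ± 0.29 on the log2 scale (edgeR adjusted p = 0.000176), and in D2, at 1.5, 0.937 and 1.09 normalised CPM, it was also lower than in B6 (-0.83 ± 0.28, edgeR adjusted p = 0.0232). The exception among the 21 was the 317 bp wide region in Pcdhb6, which had a fold of the same size without passing the test (-0.71 on the log2 scale).

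In Pcdha, 10 of 13 exon regions were lower, at a median of -0.60. They lay in Pcdha1, Pcdha2, Pcdha3, Pcdha4, Pcdha5, Pcdha7, Pcdha9 and Pcdha11. The regions in Pcdha6, Pcdha8 and the C-type gene Pcdhac1 did not pass, with log2 fold changes of -0.14, -0.11 and 0.17. In Pcdhg 8 of 16 exon regions were lower, at a median of -0.53. Among them, the Pcdhgb8 exon region at 37762963 to 37763721 (a gene annotated as a polymorphic pseudogene) had 3.96, 4.57 and 4.07 normalised CPM in B6 and 2.42, 1.18 and 1.79 in D2-13B6. The groups did not overlap, and the log2 difference was -1.21 ± 0.23 (edgeR adjusted p = 9.63e-06). The region over the last Pcdhg constant exon also fell, with 33.3 ± 1.86 normalised CPM in B6 and 24.4 ± 4.65 in D2-13B6 (SD over 3 libraries, log2 fold change -0.45, edgeR adjusted p = 0.0256), while the region over the first one, at 30.4 ± 1.70 and 30.9 ± 4.38, did not pass. The Pcdha count of 10 was 5 without B6 replicate 3 or D2-13B6 replicate 1 and 6 without B6 replicate 2 or D2-13B6 replicate 2, and the Pcdhg count of 8 was 4 without B6 replicate 2.

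**Figure D2:**
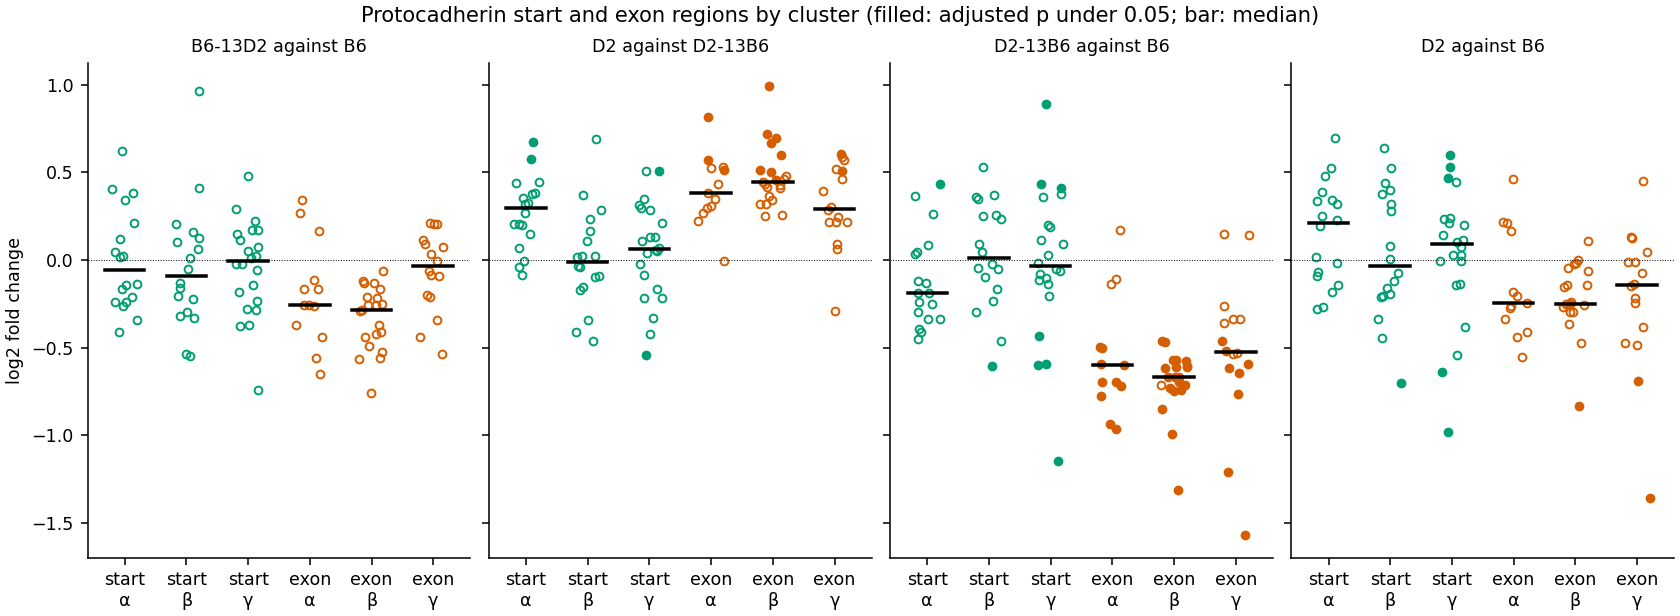
Each point is a protocadherin start or exon region, and the y axis is its log2 fold change in the comparison named above the panel. Filled points have an adjusted p under 0.05 and bars are medians. Exon regions sit below 0 in D2-13B6 against B6 (medians -0.60, -0.67 and -0.53 for Pcdha, Pcdhb and Pcdhg) and above 0 in D2 against D2-13B6 (0.38, 0.45 and 0.29).

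A ratio within each library needs no scaling between libraries. The summed counts of the 21 Pcdhb exon regions divided by those of the 18 Pcdhb starts gave 5.35, 5.33 and 4.83 in B6, 4.54 and 4.56 in B6-13D2, 3.25, 3.31 and 3.83 in D2-13B6, and 5.23, 4.83 and 4.48 in D2. Each D2-13B6 library was thus below every other library. For Pcdhg the ratio was 0.512 ± 0.0291 in B6 (SD, n = 3), 0.506 ± 0.0123 in B6-13D2 (n = 2), 0.416 ± 0.0247 in D2 and 0.327 ± 0.0525 in D2-13B6. For Pcdha it was 0.827 ± 0.0658 in B6, 0.766 ± 0.0648 in B6-13D2, 0.679 ± 0.0144 in D2 and 0.599 ± 0.120 in D2-13B6, with D2-13B6 replicate 3 (0.733) above all D2 libraries. Of the 39 genes with both kinds of region, 32 had a lower log2 fold change in the exon than at the start, including all 14 such Pcdhb genes.

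The same contrast between long exons and starts was present outside the window. Over 860 other regions that cover coding exons of 1000 bp or more away from starts, the ratio to all 38134 other start regions was 0.0125 ± 0.000347 in B6 and 0.00747 ± 0.00128 in D2-13B6, a fall to 0.596 of the B6 value, beside 0.724, 0.670 and 0.640 for Pcdha, Pcdhb and Pcdhg. Of the 858 such regions tested, 37.6% were lower in D2-13B6 than in B6 and 7.46% higher, at a median of -0.41. Coding-exon regions of 54 to 62% GC away from starts were lower in 36.0% of 3532, at a median of -0.38. Among other genes' starts, however, 37.5% were higher and 17.2% lower, at a median of 0.15, whereas few protocadherin starts passed in either direction. The rest of chromosome 18 resembled the genome, with 23.1% higher and 18.6% lower.

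**Figure D3:**
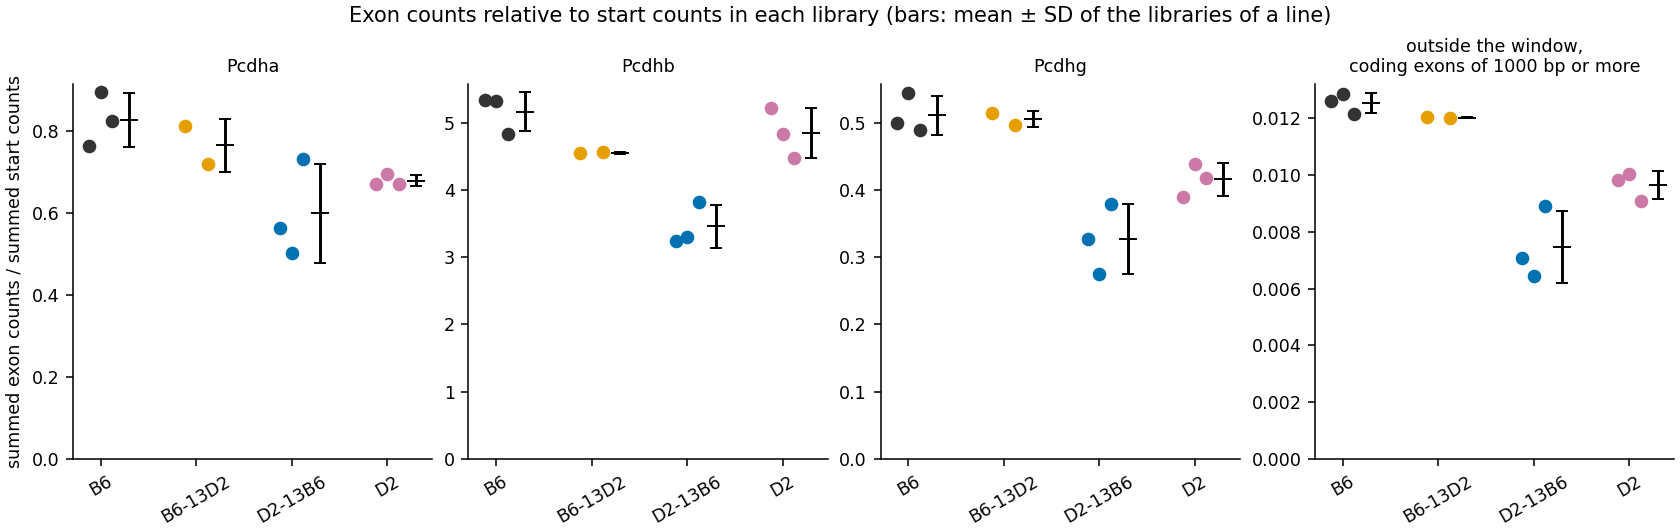
The y axis is the summed count of exon regions divided by the summed count of start regions in each library, for the 3 arrays and for coding exons of 1000 bp or more elsewhere. Points are libraries and bars are mean ± SD. D2-13B6 has the lowest mean in every panel, for example 3.46 for Pcdhb against 5.17 in B6.

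Base composition and repeated sequence could bear on these counts, so both were measured. Exon regions had a median GC content of 56.5% and protocadherin starts one of 48.9%. With offsets that remove the library-specific dependence on GC, 30 exon regions were still lower in D2-13B6 than in B6 (8 of 13 Pcdha, 18 of 21 Pcdhb and 4 of 16 Pcdhg), and 6 starts were higher and 2 lower. The arrays arose by duplication, and reads from near-identical copies could be assigned to the wrong gene. Stretches of 150 bases, the length of a read, that recurred within the window were present in 2 of 13 Pcdha, none of 21 Pcdhb and 1 of 16 Pcdhg exon regions. For stretches of 50 bases the largest share in any exon region was 26.3% in Pcdha, 22.6% in Pcdhb and 30.7% in Pcdhg. The rest of the genome was not searched, and the part of such copies in the counts was not tested. The table was made on mm10, a C57BL/6J genome, and the effect of aligning D2 reads to it was not tested.

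A CTCF consensus was searched on both strands as a single short pattern with no mismatch allowed. It was found in 13 of the 21 Pcdhb exon regions (61.9%) and in none of the 18 Pcdhb starts. Of all regions with widths in the interquartile range of the Pcdhb exon regions, 4.06% had a match. In Pcdha the matches were at the starts, in 6 of 18 (33.3%, against 4.22% of all regions of like width): those of Pcdha1, Pcdha4, Pcdha6, Pcdha7, Pcdha8 and Pcdha12. None of the 53 regions of the Pcdhg array had one. An exact pattern misses sites that differ from it, so a region without a match may still hold a CTCF site. As the arrays arose by duplication, matches in several genes of an array are not independent. The median log2 fold change of D2-13B6 against B6 was -0.62 in the 13 Pcdhb exon regions with a match and -0.72 in the 8 without. A match describes the letters only.

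In D2-13B6 against B6 the C-type starts went the other way from the exon regions or did not pass. Among other genes' starts, 37.5% were higher in this comparison and 17.2% lower. Scaling by total counts shifted the median of all regions by -0.29 and left fewer protocadherin starts higher, so the smaller rises depend on the scaling. Pcdhgc3 is the C-type gene at the head of the Pcdhg C set, and its start, at 37805776 to 37807996, had the highest level per kb of the C-type starts. It had 16.4, 17.3 and 18.6 normalised CPM in B6 and 19 and 17.6 in B6-13D2, then 31.9, 40.3 and 24.7 in D2-13B6 and 26.0, 22.5 and 23.7 in D2. Both lines of D2 background lay above both of B6 background, and the groups did not overlap. The log2 fold change was 0.89 ± 0.17 for D2-13B6 against B6 (edgeR adjusted p = 1.35e-05) and 0.47 ± 0.17 for D2 against B6 (edgeR adjusted p = 0.0378), while D2 against D2-13B6, at -0.42 ± 0.17, did not pass (edgeR adjusted p = 0.0563). Pcdhac2, the last gene of the Pcdha array, had 11.8, 10.8 and 13.5 normalised CPM at its start in B6 and 16.2, 19.2 and 13.5 in D2-13B6, with 1 D2-13B6 library below the highest B6 library (log2 fold change 0.43 ± 0.17, edgeR adjusted p = 0.0346). Pcdhgc4 rose by a like amount (0.41 ± 0.17, edgeR adjusted p = 0.0456), and Pcdhac1 did not pass (-0.13 ± 0.18, edgeR adjusted p = 0.597). Pcdhgc5 had no start region, and its exon region fell (-0.46 ± 0.16, edgeR adjusted p = 0.0185).

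Of the 58 protocadherin starts, 3 were higher and 3 lower in D2 than in B6. Among other genes' starts, 24.8% were higher and 6.6% lower, so protocadherin starts were called less often than starts in general. Outside the C-type genes, 5 start regions were called in D2 against B6, and 3 of them belonged to Pcdhgb6 and Pcdhgb7. The start of Pcdhgb6, at 37741778 to 37742627, had 7.09, 6.22 and 6.26 normalised CPM in B6 and 4.82 and 6.33 in B6-13D2, then 4.75, 5.24 and 4.5 in D2-13B6 and 3.24, 3.35 and 3.35 in D2. D2 was the lowest line, below D2-13B6 as well as B6, with log2 fold changes of -0.98 ± 0.18 against B6 (edgeR adjusted p = 3.67e-05), -0.55 ± 0.18 against D2-13B6 (edgeR adjusted p = 0.022) and -0.75 ± 0.21 against B6-13D2 (edgeR adjusted p = 0.00643). The last of these was lost without B6-13D2 replicate 2 (edgeR adjusted p = 0.220, log2 fold change -0.54). Pcdhgb7 had 2 start regions that behaved differently. The one over its annotated start, at 37751377 to 37752057, was higher in D2 than in B6 (7.15 ± 1.47 against 4.73 ± 0.231 normalised CPM, log2 fold change 0.60, edgeR adjusted p = 0.0129). The one 519 bp away, at 37752119 to 37752790, was lower in D2 (2.23 ± 0.182 against 3.46 ± 0.297, log2 fold change -0.64, edgeR adjusted p = 0.0332) and lower still in D2-13B6 (1.57 ± 0.565, log2 fold change -1.15, edgeR adjusted p = 5.28e-05). Pcdhga7 was higher in D2 than in B6 (9.99 ± 0.653 against 6.93 ± 0.373, log2 fold change 0.53, edgeR adjusted p = 0.0158), and Pcdhb11 was lower (1.78 ± 0.238 against 2.9 ± 0.675, log2 fold change -0.70, edgeR adjusted p = 0.0207). Named here after their values were seen, these last 3 genes and Pcdhgc3 with Pcdhgb6 made up all 6 start regions called in D2 against B6.

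The exon of Pcdhgb1 separated the 2 backgrounds. Its region at 37682361 to 37682839 had 3.59, 2.44 and 3.15 normalised CPM in B6 and 2.87 and 2.49 in B6-13D2, but 1.32, 1.00 and 0.756 in D2-13B6 and 1.35, 1.04 and 1.23 in D2. Every library of D2 background was below every library of B6 background. Log2 fold changes were -1.57 ± 0.26 for D2-13B6 against B6 (edgeR adjusted p = 5.11e-07), -1.36 ± 0.25 for D2 against B6 (edgeR adjusted p = 2.39e-05) and -1.15 ± 0.28 for D2 against B6-13D2 (edgeR adjusted p = 0.0018, and 0.0548 without B6-13D2 replicate 1). This region was also the one in which repeated sequence was most common among the Pcdhg exon regions: 30.7% of its stretches of 50 bases and 4.24% of those of 150 bases recurred in the window.

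Some regions outside the protocadherin starts and exons also differed between the lines. An intergenic region at 37567677 to 37569075, between Pcdhb and Pcdhg and soft-masked as repeat over 77.1% of its bases, had 6.59, 7.56 and 6.78 normalised CPM in B6 and 7.14 and 7.67 in B6-13D2, then 2.94, 3.88 and 4.20 in D2-13B6 and 3.73, 3.91 and 3.78 in D2. It was lower in D2 than in B6 (-0.87 ± 0.18, edgeR adjusted p = 0.000208) and than in B6-13D2 (-0.96 ± 0.20, edgeR adjusted p = 0.000263). The start of 4930517L18Rik, a long non-coding RNA gene, was on the other side, with 1.4, 1.04 and 1.58 normalised CPM in B6 and 3.76, 2.65 and 3.72 in D2 (1.31 ± 0.25, edgeR adjusted p = 4.21e-05), and 1.51 ± 0.30 against B6-13D2 (edgeR adjusted p = 9.49e-05). An intronic region of the Pcdha array at 37038006 to 37038309, soft-masked over 97.0% of its bases, had the most negative folds. It rested on 5, 6 and 14 counts in B6, 6 and 5 in B6-13D2, 4, 0 and 0 in D2-13B6, and 0, 1 and 4 in D2. Its log2 fold change of -3.11 ± 0.92 for D2-13B6 against B6 is thus imprecise. The region passed the filter on low counts only through B6 libraries, so no p-value is read from it.

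Several neighbours of the arrays opened in D2-13B6. Taf7 encodes a subunit of the general transcription factor TFIID and lies between Pcdhb and Pcdhg. Its start, at 37643132 to 37644724, had 8.75, 7.80 and 8.36 normalised CPM in B6 and 8.37 and 8.87 in B6-13D2, then 21.7, 22.9 and 14.3 in D2-13B6 and 13.9, 13.6 and 14.7 in D2. The log2 fold change was 1.24 ± 0.17 for D2-13B6 against B6 (edgeR adjusted p = 1.18e-08), 0.76 ± 0.17 for D2 against B6 (edgeR adjusted p = 0.000618) and 0.71 ± 0.20 for D2 against B6-13D2 (edgeR adjusted p = 0.00646, lost at 0.108 without B6-13D2 replicate 1 and at 0.0636 without replicate 2). Diaph1, a formin that assembles actin filaments, borders the Pcdhg array. An intronic region of Diaph1 at 37849359 to 37850298 had 3.43, 5.37 and 5.78 normalised CPM in B6 and 4.09 and 4.48 in B6-13D2, then 21.7, 27.6 and 21.1 in D2-13B6 and 10.4, 10.4 and 7.85 in D2. It had the largest positive log2 fold change of the window in D2-13B6 against B6, with log2 fold changes of 2.29 ± 0.19 for D2-13B6 against B6 (edgeR adjusted p = 1.37e-16), -1.30 ± 0.17 for D2 against D2-13B6 (edgeR adjusted p = 3.57e-08), 0.99 ± 0.19 for D2 against B6 (edgeR adjusted p = 3.48e-05) and 1.16 ± 0.22 for D2 against B6-13D2 (edgeR adjusted p = 4.6e-05). The start of a shorter annotated Diaph1 transcript nearby, at 37851721 to 37852767, rose from 7.85 ± 1.38 in B6 to 18.1 ± 2.97 in D2-13B6 (1.20 ± 0.17, edgeR adjusted p = 2.23e-08). Not all of Diaph1 opened: the region over its coding exon at 37859606 to 37861236 fell from 13.4 ± 0.726 to 7.76 ± 1.86 (-0.79, edgeR adjusted p = 0.000137).

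Within the Pcdha array, 2 regions outside the protocadherin starts and exons were clearly lower in D2 than in D2-13B6. An intronic region at 37149313 to 37149597, 5810 bp from the nearest protocadherin start (Pcdhac2), had 0.499, 0.549 and 0.832 normalised CPM in B6 and 0.273 and 0.847 in B6-13D2, then 2.99, 3.00 and 2.65 in D2-13B6 and 0.830, 1.02 and 1.69 in D2. D2-13B6 was above every other library, and D2 was lower than it by a log2 fold change of -1.29 ± 0.27 (edgeR adjusted p = 0.000143). The start of Gm38097, an antisense transcript inside the array, had 7.64, 8.12 and 6.95 in D2-13B6 and 4.77, 4.58 and 4.90 in D2 (-0.67 ± 0.17, edgeR adjusted p = 0.00201), and 4.29 ± 0.198 in B6.

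**Figure D4:**
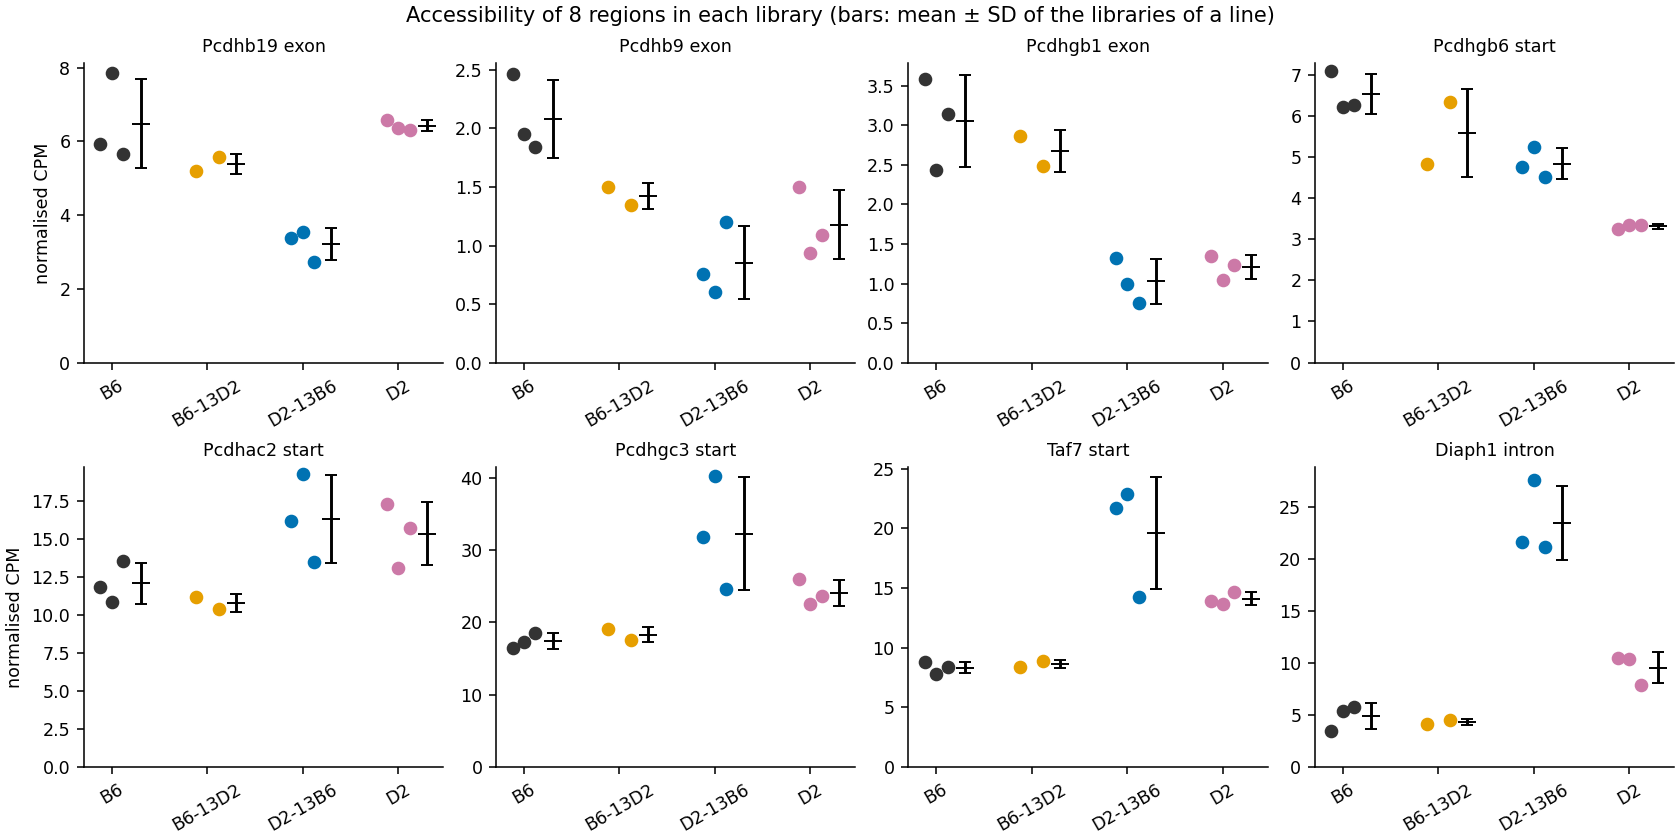
Normalised CPM of 8 regions in each library, with mean ± SD per line. Pcdhb19 and Pcdhb9 exon regions are lowest on average in D2-13B6, the Pcdhgb1 exon region is low in both lines of D2 background, Pcdhgb6 is lowest in D2, and the Pcdhgc3, Taf7 and Diaph1 regions are highest on average in D2-13B6.

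The interval was exchanged in both directions, and the 2 comparisons of lines that differ in it share no library. With 1 cell line per genotype, an effect of the interval cannot be told apart from other differences between lines. As none was called in B6-13D2 against B6, no region was called in both. In B6-13D2 against B6 the 50 exon regions had a median log2 fold change of -0.22, with 40 of 50 below 0 and all 21 Pcdhb exon regions below 0 (median -0.28), and the 58 starts one of -0.02. None passed the test. Coding-exon regions of 54 to 62% GC elsewhere had a median of -0.08, and long coding exons elsewhere one of -0.07. The B6-13D2 libraries were low at regions of high GC, by a mean of -0.12 (log2) at 60% GC, against 0.00 in B6. With GC offsets the median of the 50 exon regions was -0.11 and that of the Pcdhb exon regions -0.18. The Pcdhb exon regions summed to 131 ± 6.62 normalised CPM in B6 and to 108 ± 8.41 in B6-13D2 (SD, n = 3 and 2). In D2 against D2-13B6, 13 of the 50 exon regions were higher and none lower (3 Pcdha, 8 Pcdhb and 2 Pcdhg), at a median of 0.42, beside 3 starts higher and 1 lower. Here 19.9% of the long coding exons elsewhere were higher and 4.66% lower, at a median of 0.28. Of other genes' starts, 8.04% were higher and 15.8% lower, so protocadherin starts were called less often in both directions. Among the 13 protocadherin exon regions Pcdhb19 had the largest log2 fold change (0.99 ± 0.18, edgeR adjusted p = 1.73e-05). Next by p came Pcdhb8, with 4.88, 5.51 and 5.40 normalised CPM in D2-13B6 and 8.79, 9.21 and 7.93 in D2 (0.72 ± 0.17, edgeR adjusted p = 0.000848), and Pcdha7, with 3.01, 2.06 and 3.03 in D2-13B6 and 5.06, 4.63 and 4.55 in D2 (0.81 ± 0.20, edgeR adjusted p = 0.00128). In each case the groups did not overlap. The count of 8 Pcdhb exon regions fell to 4 without D2 replicate 1 or without D2-13B6 replicate 1 and to 5 with GC offsets, and total counts gave 17.

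The interaction sets the 2 interval comparisons against each other. It is the log2 fold change of B6-13D2 against B6 minus that of D2 against D2-13B6. It was called in 10 of the 157 regions, 1 positive and 9 negative, against 6.54% of all regions (4.55% positive, 1.99% negative). All 9 negative ones were exon regions, in Pcdha3, Pcdha7, Pcdhb2, Pcdhb3, Pcdhb4, Pcdhb12, Pcdhb13, Pcdhb19 and Pcdhgb8. The 50 exon regions had a median of -0.67. The lean was shared by coding exons elsewhere. Of the long ones, 5.36% were negative and 1.4% positive, at a median of -0.35. Of those with 54 to 62% GC, 2.72% were negative and 0.425% positive, at a median of -0.27. Total counts gave 1 positive and 23 negative, DESeq2 2 and 5, and GC offsets 1 and 2. Without B6-13D2 replicate 2 the count was 1, without B6-13D2 replicate 1 it was 5, without D2 replicate 1 it was 3, without B6 replicate 1 or 3 it was 6, and without D2-13B6 replicate 3 it was 21. Pcdhb19 had an interaction of -1.25 ± 0.28 on the log2 scale (edgeR adjusted p = 0.00403). Pcdhb4, at 37308861 to 37309948, had 4.86, 5.06 and 5.56 normalised CPM in B6 and 3.73 and 3.59 in B6-13D2, then 3.19, 3.00 and 3.37 in D2-13B6 and 5.53, 5.14 and 4.53 in D2. Both congenic lines were thus below both parent lines, and the interaction was -1.16 ± 0.29 (edgeR adjusted p = 0.00902, and 0.0661 without B6-13D2 replicate 2). The positive one was the Diaph1 intron (1.13 ± 0.28, edgeR adjusted p = 0.00925, and 0.0714 without B6 replicate 1 or 0.0842 without B6-13D2 replicate 2).

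The genes that act on the arrays were also read at their own starts. The list held 28 genes for chromosome architecture and silencing, with 73 start regions. Values given for single genes are from 1 start region per gene, and other start regions of these genes are not described singly. In D2-13B6 against B6, 32 of them were higher and 14 lower at a median of 0.20, which became -0.11 under total counts, and in D2 against B6 22 were higher and 5 lower. The share higher in the first was close to that of other genes' starts (37.5%). In the second, 24.8% of other genes' starts were higher and 6.6% lower. In B6-13D2 against B6 none passed, where 0.263% of other genes' starts were called. In D2 against D2-13B6 7 were higher and 9 lower, where 8.04% of other genes' starts were higher and 15.8% lower. Smchd1, a non-canonical SMC protein that represses the arrays, had 20.5 normalised CPM at its start in B6 and 42.2 in D2-13B6, a log2 fold change of 1.04. Ctcf rose from 20.8 to 33.9 (0.71) and the cohesin subunit Stag2 from 4.91 to 14.1 (1.53). Setdb1, a histone methyltransferase that silences the arrays in neurons, rose from 6.61 to 9.96 (0.59). Ehmt2, a histone methyltransferase, was among the lower ones, falling from 28.4 to 18.9 (-0.59). Dnmt3b, a DNA methyltransferase that methylates protocadherin promoters, had 18.5 in B6 and 17.0 in D2-13B6 (-0.12) and did not pass.

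The 12 non-clustered protocadherin genes, which lie outside the arrays, had 20 start regions. Among these, start regions of Pcdh1 (38209452 to 38213263) and Pcdh12 (38283516 to 38283975) lie on chromosome 18 too, beyond the window. In D2-13B6 against B6, 8 of the 20 were higher and none lower, at a median of 0.26 that became -0.06 under total counts, where 37.5% of other genes' starts were higher. In D2 against B6 7 of the 20 were higher and none lower, where 24.8% of other starts were higher, and in B6-13D2 against B6 none passed. Pcdh7 rose from 37.0 to 80.4 normalised CPM in D2-13B6 (log2 fold change 1.12) and Pcdh18 from 4.69 to 10.2 (1.12). Pcdh8, with 27.4 and 24.7, did not pass (-0.15).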

How the data were processed

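Open chromatin was measured by ATAC-seq (cutting by the Tn5 transposase) in 11 libraries of 4 cell lines with a read length of 150 bp. The authors deposited raw counts per region in 1 table of 248336 regions. Per the submitters' processing notes, mm10, Trimmomatic 0.39, BWA 0.7.5, Picard 2.0.1, MACS 1.4.2, bedtools 2.9.2 and edgeR 3.34.1 were used. Per the file headers, duplicates and mitochondrial reads had been removed. Handling of reads with several matches, the transposase shift and whether reads or fragments were counted are not given in the sources used here. Such counts do not separate molecules from PCR copies, and errors cover counting and library spread only.

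Counts were tested with edgeR 4.0.16 (R 4.3.3): TMM, filterByExpr, robust quasi-likelihood fit of all 11 libraries, Benjamini-Hochberg adjustment over 246840 regions. Standard errors follow from the F statistic. The fit was checked on simulated data. No pair of libraries agreed within sampling noise. A start region lay within 1000 bp of a GENCODE M21 start, and 3 read-through gene models were left out. Summaries used Python 3.11.15. Alternatives were RLE factors, total counts, no filter, DESeq2 1.42.0, only the libraries compared, a replicate block, a minimum fold of 1.5, each library left out and, chosen after seeing the data, GC offsets.

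The window, the gene lists and the tests were chosen with earlier results of these data known. Named regions were, for each pairwise comparison, the 3 called regions higher and 3 lower with the smallest p and no overlap between groups; for the interaction, up to 2 in each direction; any called with the same sign in both interval comparisons (none); the 5 with the highest mean log2 CPM (prior count 2); and the C-type starts. Regions outside this rule were named after their values were seen: the exon regions of Pcdhb6, Pcdhb9 and Pcdhgc5 and those in the interaction list, the Pcdha exon regions, the Pcdhgb7, Pcdhga7 and Pcdhb11 starts, the Pcdha intron at 37038006 and the Diaph1 coding exon. The single genes named from the gene lists and the marker lists lay outside this rule too. No sequence is printed.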

Additional observations from a re-analysis of the deposited data

Results flagged for a closer look

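Each background had 2 lines that differ in the chromosome 13 interval. The difference between them varied by background, by the tested interaction, in 10 of the 157 regions. With 1 cell line per genotype, this cannot be ascribed to the interval alone. The share was close to the 6.54% over all regions. The count was 1 without B6-13D2 replicate 2 and 3 with GC offsets. Pcdhb19 had the most negative value on the log2 scale, -1.25, followed by the exon regions of Pcdhb2 (-1.17), Pcdhb4 (-1.16), Pcdhb12 (-1.14), Pcdhgb8 (-1.05), Pcdha7 (-0.98), Pcdhb13 (-0.97), Pcdhb3 (-0.94) and Pcdha3 (-0.89). The Diaph1 intron was positive at 1.13. Long coding exons elsewhere also leaned negative (5.36% negative, 1.4% positive). Groups of 2 and 3 libraries were too small for a test of single libraries that stand apart.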

How the results depend on the processing

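Of 27 named log2 fold changes, 22 kept their call under every setting applied to them and 5 lost it when 1 library was left out. None reversed. The minimum fold of 1.5 was applied to the counts only, where it left fewer calls than there are named regions in several comparisons. Leaving out 1 library gave 13 to 27 called regions in D2 against B6, 11 to 35 in D2 against D2-13B6, 48 to 70 in D2-13B6 against B6, 4 to 18 in D2 against B6-13D2 and 1 to 21 in the interaction. A minimum fold of 1.5 gave 3, 2, 13, 2 and 0 in that order. D2 against D2-13B6 gave 52 under total counts and 17 with only the libraries compared. The interaction gave 6 with RLE factors, 24 under total counts and 3 with GC offsets. B6-13D2 against B6 gave 0 throughout. For exon regions higher in D2 than in D2-13B6, Pcdha gave 1 with RLE factors, 6 under total counts, 0 with the minimum fold, 1 with DESeq2 and 1 to 4 with a library left out. Pcdhb gave 5, 17, 0, 4 and 4 to 11, with 5 for only the libraries compared and 5 with GC offsets. Pcdhg gave 0, 8, 0, 0 and 0 to 2, with 1 and 0. For exon regions lower in D2-13B6 than in B6, the minimum fold gave 0 in Pcdha, 2 in Pcdhb and 2 in Pcdhg, and leaving out a library gave 5 to 10, 17 to 21 and 4 to 8. DESeq2 gave 5 in Pcdha and 5 in Pcdhg, where total counts gave 13, only the libraries compared 3 and GC offsets 4. The summed starts of Pcdha, Pcdhb and Pcdhg had log2 ratios of D2-13B6 to B6 of -0.04, -0.07 and 0.15, and of -0.34, -0.37 and -0.16 under total counts. The minimum fold tests a larger change. For the other settings the cause was not tested. With the replicate number as a block, the counts were 25, 0, 27, 69, 12 and 14 for D2 against B6, B6-13D2 against B6, D2 against D2-13B6, D2-13B6 against B6, D2 against B6-13D2 and the interaction. Same-numbered libraries did not deviate together (correlations of -0.049 to 0.068 over 15 pairs), so the numbers pair no libraries. Counts of 0 to 14 in the Pcdha intron at 37038006 show where depth limits a fold.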
